A study of Mus musculus with 3 samples.

Results

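The endothelial and vessel formation genes were 32 genes that mark or build blood vessel endothelium, found on the arrays by gene name or RefSeq accession. All 32 were measured, out of 22780 genes and other transcripts tested. They covered 44 probes, 42 of which passed the filter on dim probes. RNA of mouse embryos at stage E8.75 was compared on 3 arrays of 2 colours each. The Cy3 channel of every array held RNA labelled wild-type, and the Cy5 channel held RNA labelled Brpf1-deficient. Brpf1 encodes a scaffold protein of histone acetyltransferase complexes. Embryos of both genotypes were untreated, and the labels number the embryos 1 to 3 without naming the mutant allele, the strain or any pooling. The 3 arrays are called pairs 1, 2 and 3, and p-values measure only the spread between them. Dye and genotype cannot be told apart, since no array had the dyes swapped.

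By this stage the first vessels have formed from mesodermal precursors in the yolk sac and embryo, the heart has begun to beat, and blood has started to circulate. VEGF acting through its receptor Kdr starts the endothelial programme. Etv2, an ETS family transcription factor, switches it on, and Fli1, Erg and the Sox factors keep it going. Angiopoietins acting through Tek and Tie1, together with junction proteins such as Cdh5 (VE-cadherin), then remodel and seal the vessels.

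Each value below is a log2 ratio with Cy5 on top and Cy3 beneath. Above 0, the Brpf1-deficient channel (by its label) was the brighter. Brpf1 itself was higher in Cy5, the channel labelled Brpf1-deficient, at 2.01, 1.43 and 1.06 in pairs 1, 2 and 3 (mean 1.5 ± 0.19, SE, n = 3; limma adjusted p = 0.0402). The mutant allele and the position of the probe in the gene are not given. Whether that allele would lower this probe's signal is thus not known, and the genotype of each channel could not be checked. The directions below refer to channels rather than to genotypes. The RNAs held more than endothelium. Markers of red cells, yolk sac endoderm, heart muscle, decidua and trophoblast were all measured, and 31 of the 32 endothelial genes were well above background in both channels on all 3 arrays. Erg was well above background in Cy3 on 3 arrays and in Cy5 on 2. A whole-embryo RNA cannot tell fewer endothelial cells from less RNA per endothelial cell.

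No endothelial gene changed at the threshold used, an adjusted p of 0.05 in limma with Benjamini-Hochberg adjustment over all genes. Over all genes 1.38% passed. Most of these were very bright, and of the 17057 genes within the members' range of intensity 19 passed above 0 and 20 below. With a loess span of 0.02, with scanner-processed signals, with the very bright genes left out or without any 1 pair, limma called 0 genes in all, while 2064 to 3637 had an unadjusted p below 0.05. The calls for Brpf1 and for marker genes below were thus lost in those settings. The smallest adjusted p among the 32 was 0.137, that of Plvap. At an unadjusted p below 0.05 there were 3 members higher (Plvap, Tie1 and Lyve1) and 1 lower (Robo4) in Cy5, or 12.5% of the members. The shares of all genes were 8.2% higher and 9.01% lower, 17.2% together. The members' count thus lay below the share found over all genes. The mean ratio was under 0.25 in size for 28 of the 32 genes, and the 95% confidence interval lay between -0.5 and 0.5 for 24 of them. These intervals are limma's moderated ones over 3 pairs and are not adjusted for the number of genes.

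**Figure D1:**
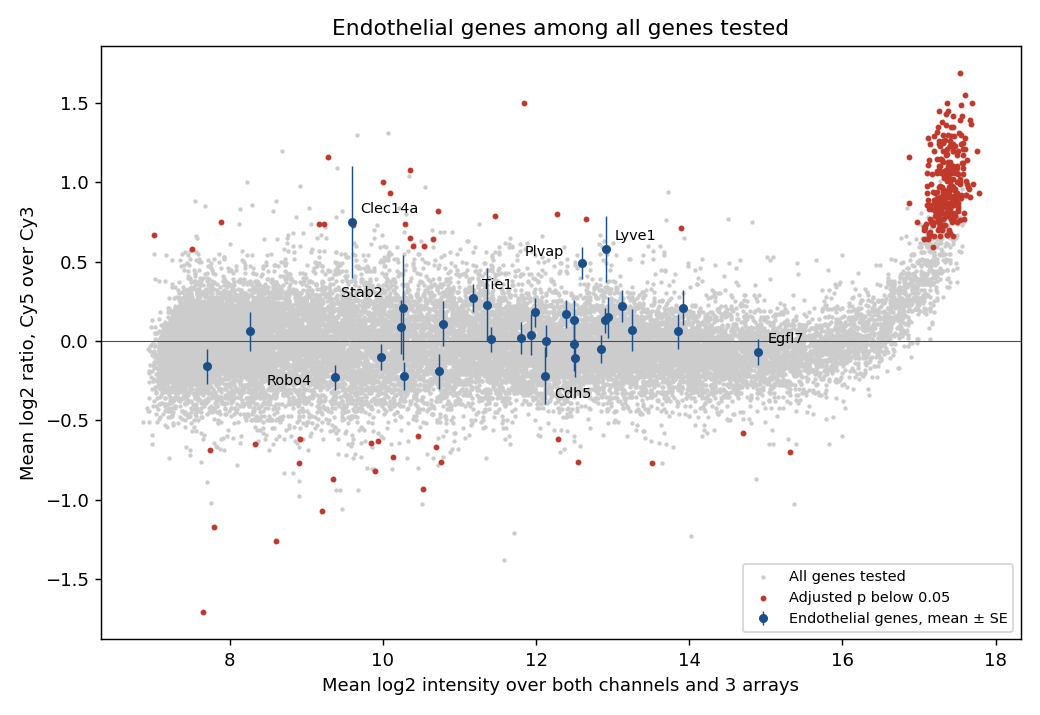
Mean log2 ratio of Cy5 over Cy3 (vertical axis) against mean log2 intensity over both channels and the 3 arrays (horizontal axis) for all 22780 genes tested (grey), genes with an adjusted p below 0.05 (red) and the 32 endothelial genes (blue, mean ± SE over 3 pairs). The endothelial genes run from -0.23 (Robo4) to 0.75 (Clec14a), and none of them is among the genes past the threshold.

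The median ratio of the 32 genes was 0.07, against -0.02 over all genes tested. Of the members 21 lay above 0, or 65.6%, as did 45.3% of all genes. The median without pair 3 was -0.04, so its sign rested on that pair. The pairs did not show the members alike: the median was -0.10 in pair 1, 0.03 in pair 2 and 0.24 in pair 3, while the median of all genes lay between -0.04 and -0.01 in each. In pair 1, 8 of the 32 genes were above 0, in pair 2 there were 17, and in pair 3 there were 26. Over all genes the shares above 0 were 47.2%, 45% and 48.9%.

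The same sign in all 3 pairs was found for 8 members, 5 of them above 0 (Tie1, Flt1, Nos3, Plvap and Aplnr) and 3 below (Robo4, Gpr116 and Vwf). That is 25% of the members, against 43.2% of all genes (19.5% above 0 and 23.6% below). The most frequent pattern among the members was a ratio below 0 in pair 1 and above 0 in pairs 2 and 3, found in 10 genes (31.2%; 6.22% of all genes). The next was a ratio above 0 in pair 3 and below 0 in pairs 1 and 2, found in 9 genes (28.1%, against 12.8% of all genes). A sign was counted however small the ratio, in the members and over all genes. Of the 10 genes, Sox18 (0.00), Ramp2 (-0.03) and Lyve1 (-0.03) were nearly level in pair 1. Pair 1 held the lowest of the 3 ratios for 21 genes, and pair 3 held the highest for 18. The range between pairs had a median of 0.41 over the members and 0.30 over all genes.

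**Figure D2:**
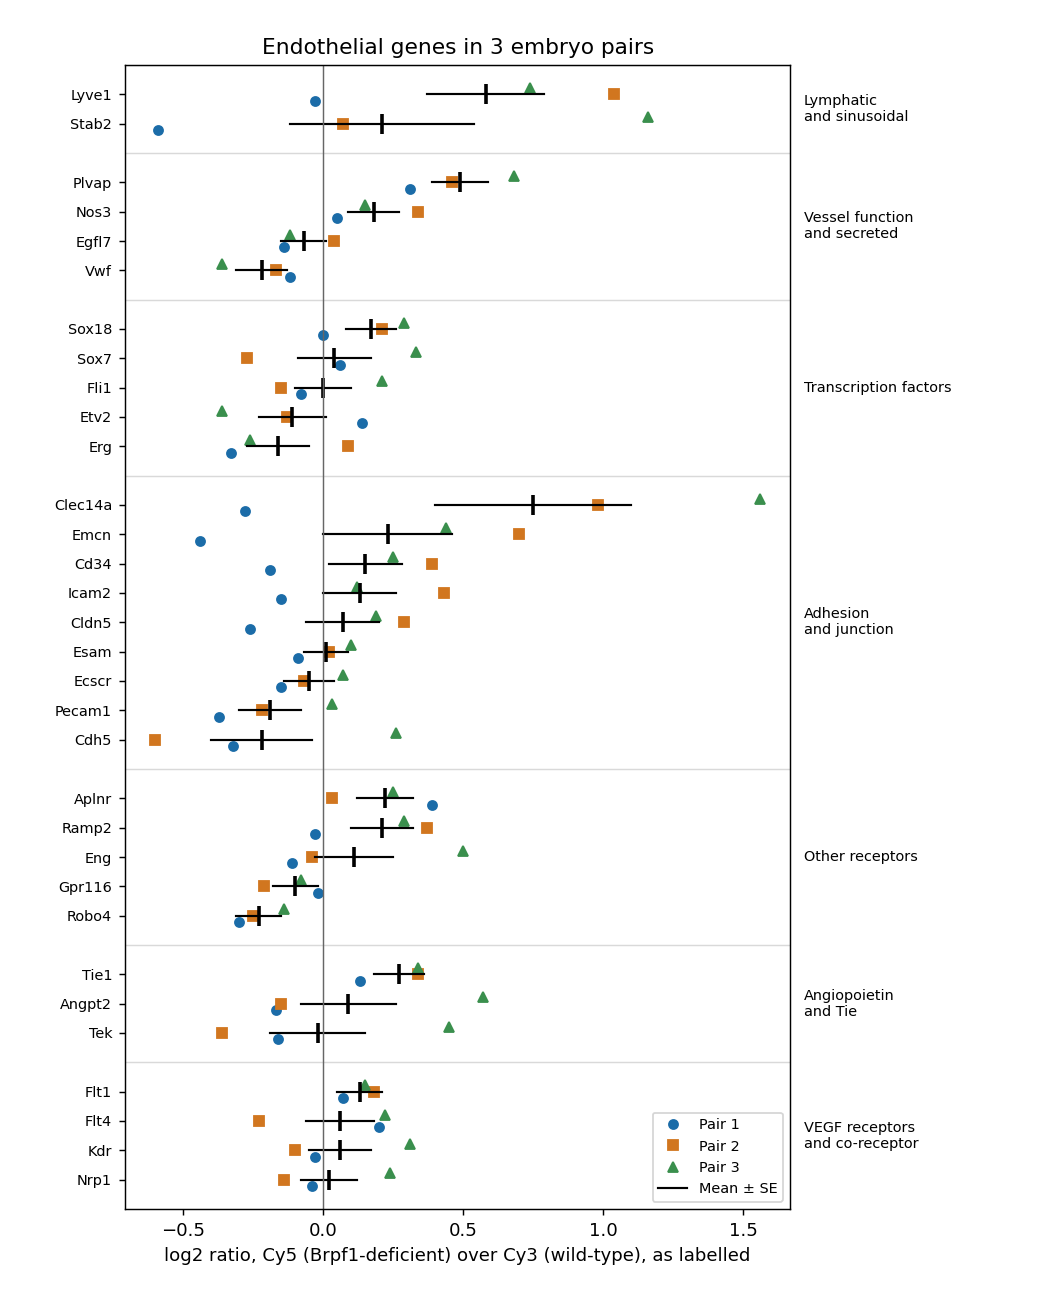
Log2 ratio of Cy5 over Cy3 for each of the 32 endothelial genes, grouped by role, in pair 1 (circles), pair 2 (squares) and pair 3 (triangles); the black tick and bar give the mean ± SE over 3 pairs. The 9 adhesion and junction genes all lie below 0 in pair 1 and above 0 in pair 3, and Clec14a spreads the most, from -0.28 to 1.56.

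Among the VEGF receptors and their co-receptor, the means lay between 0.02 and 0.13. Kdr, the main signalling receptor for VEGF, had a mean of 0.06 ± 0.11 (SE, n = 3 pairs), with pairs between -0.10 and 0.31. Flt1, which binds VEGF tightly and limits its supply to Kdr, had 0.07, 0.18 and 0.15 in pairs 1, 2 and 3, the narrowest spread of the 32 genes, and a mean of 0.13 ± 0.08 (limma adjusted p = 0.442). Flt4, the receptor for VEGF-C in lymphatic and early venous endothelium, had the widest range of the 4, with 0.20, -0.23 and 0.22. Pair 2 stood opposite to the other pairs for Flt4, and the mean was 0.06 ± 0.12. Nrp1, a co-receptor for VEGF and semaphorins, had a mean of 0.02 ± 0.10, with pairs between -0.14 and 0.24.

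In the angiopoietin and Tie group Tie1 was the steadier gene. Tie1, an orphan receptor that modulates Tek, had normalised intensities of 2246 in Cy3 and 2457 in Cy5 in pair 1, 2330 and 2953 in pair 2, and 1817 and 2308 in pair 3. Intensities were scaled within each array, so values are compared within a pair and not between pairs. Cy5 was the brighter channel in every pair, with log2 ratios of 0.13, 0.34 and 0.34, a mean of 0.27 ± 0.09 (SE, n = 3; 1.21-fold) and a limma adjusted p of 0.242. Tek, the receptor of the angiopoietins, had -0.16, -0.36 and 0.45 and a mean of -0.02 ± 0.17. Angpt2, a ligand that destabilises vessels, had -0.17 and -0.15 in pairs 1 and 2, 0.57 in pair 3 and a mean of 0.09 ± 0.17. For Tek and Angpt2 pair 3 thus lay on the other side of 0 from pairs 1 and 2.

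Of the other receptors, Robo4, which stabilises vessels against leak, was lower in Cy5 in every pair. Its normalised intensities were 813 in Cy3 and 662 in Cy5 in pair 1, 744 and 625 in pair 2, and 622 and 563 in pair 3. The log2 ratios were -0.30, -0.25 and -0.14, with a mean of -0.23 ± 0.08 (SE, n = 3; 1.17-fold brighter in Cy3; limma adjusted p = 0.266). Aplnr, the receptor of apelin on venous and sprouting endothelium, was above 0 in all pairs, with a mean of 0.22 ± 0.10 and pairs between 0.03 and 0.39. Ramp2, which makes the calcitonin receptor-like receptor respond to adrenomedullin, had 0.21 ± 0.11, with -0.03 in its lowest pair and 0.37 in its highest. Eng, a co-receptor of the TGF-beta family, had the widest range of the group, with -0.11, -0.04 and 0.50 and a mean of 0.11 ± 0.14. Gpr116, an adhesion receptor now named Adgrf5, had -0.10 ± 0.08, with pairs between -0.21 and -0.02.

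The promoter sequences of Tie1 and Robo4 are shown because they are the members with an unadjusted p below 0.05 that have an entry in the RefSeq promoter table used (build GRCm38.p6; 17 of the 32 members have one). Each runs 5′ to 3′ along the gene's strand up to the annotated start of the gene, and capitals mark matches to a SOX core.
Tie1, chr4:118489850-118490099, minus strand: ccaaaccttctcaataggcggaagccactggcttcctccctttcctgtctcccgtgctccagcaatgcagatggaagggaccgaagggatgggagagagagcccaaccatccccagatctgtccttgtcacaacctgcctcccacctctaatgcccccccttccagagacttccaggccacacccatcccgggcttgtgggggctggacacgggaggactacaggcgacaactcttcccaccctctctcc
Robo4, chr9:37401722-37401901, plus strand: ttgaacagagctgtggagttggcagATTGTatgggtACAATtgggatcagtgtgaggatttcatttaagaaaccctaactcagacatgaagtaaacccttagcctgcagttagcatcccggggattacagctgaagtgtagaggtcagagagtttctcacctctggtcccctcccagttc

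Short cores were searched on both strands in windows of 300 bases, with 1 window a gene. CCGGAA, a longer form of the ETS core, was in 1 of the 17 member windows (5.88%), that of Kdr, and in 15.2% of the windows of 27025 genes. Shorter or other ETS forms were not searched. The SOX core ACAAT was in 5 of 17 (29.4%) and in 31.5% of all. The GATA core AGATAA was in 1 of 17 (5.88%), that of Tek, and in 11.4% of all. Robo4 held the SOX core starting 155 bases (as ATTGT) and 144 bases (as ACAAT) before the gene's start. The printed stretch of Tie1 held none of these 3 exact strings, though it does hold GGAA, the end of CCGGAA. These matches describe the letters and are not binding sites.

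The 9 adhesion and junction genes differed between pairs, with a median of -0.26 in pair 1, 0.29 in pair 2 and 0.19 in pair 3. All 9 were below 0 in pair 1, 6 were above 0 in pair 2, and all 9 were above 0 in pair 3. None had an unadjusted p below 0.05. Clec14a, a lectin-like glycoprotein of endothelium, had the largest mean and the largest range of the 32 genes. Its normalised intensities were 541 in Cy3 and 444 in Cy5 in pair 1, 742 and 1463 in pair 2, and 521 and 1539 in pair 3. The log2 ratios were -0.28, 0.98 and 1.56, with a mean of 0.75 ± 0.35 (SE, n = 3; limma adjusted p = 0.345). Clec14a was thus brighter in Cy5 in pairs 2 and 3 and dimmer in pair 1. Its mean was 1.27 without pair 1, 0.64 without pair 2 and 0.35 without pair 3.

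Emcn (endomucin), a sialomucin of veins and capillaries, had -0.44, 0.70 and 0.44, and a mean of 0.23 ± 0.23 (SE, n = 3). Cd34, a sialomucin shared with blood progenitors, had 0.15 ± 0.13, with pairs between -0.19 and 0.39. Icam2, a ligand for leukocyte integrins, had 0.13 ± 0.13, and Cldn5, the claudin of endothelial tight junctions, 0.07 ± 0.13. For these 4 genes pair 1 was below 0 and pairs 2 and 3 were above it. Cdh5, the cadherin of endothelial junctions, had -0.32, -0.60 and 0.26 and a mean of -0.22 ± 0.18. Pecam1, an immunoglobulin-like adhesion molecule, had -0.19 ± 0.11, with pairs between -0.37 and 0.03. Cdh5 and Pecam1, the classical junction markers, thus lay below 0 in pairs 1 and 2. With a pair left out, the mean ran from -0.46 to -0.03 for Cdh5, from -0.30 to -0.09 for Pecam1, from 0.03 to 0.32 for Cd34 and from 0.00 to 0.57 for Emcn. Esam, a junctional adhesion molecule, had 0.01 ± 0.08 and Ecscr, an endothelial surface protein, -0.05 ± 0.09.

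The 5 transcription factors lay close to 0, with a median of 0.00 and means between -0.16 and 0.17. Etv2, the early ETS factor that starts the lineage, had -0.11 ± 0.12 (SE, n = 3), with pairs between -0.36 and 0.14. Its relatives Fli1 and Erg had 0.00 ± 0.10 and -0.16 ± 0.11. Sox7 had the widest range of the group, with 0.06, -0.27 and 0.33 in pairs 1, 2 and 3 and a mean of 0.04 ± 0.13. Sox18, mutated in a mouse strain with vessel and hair defects, had 0.17 ± 0.09, with 0.00 in pair 1 and 0.29 in pair 3.

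Plvap, which forms the diaphragms of endothelial fenestrae and caveolae, stood out among genes of vessel function. Its normalised intensities were 5680 in Cy3 and 7064 in Cy5 in pair 1, 5794 and 7992 in pair 2, and 4393 and 7027 in pair 3. Cy5 was brighter in each pair. The log2 ratios were 0.31, 0.46 and 0.68, with a mean of 0.49 ± 0.10 (SE, n = 3; 1.4-fold; limma adjusted p = 0.137). The interval of this mean ran from 0.23 to 0.74, and the adjusted p did not pass over all genes. Nos3, the endothelial nitric oxide synthase, had 0.18 ± 0.09, with pairs between 0.05 and 0.34. Vwf, the clotting factor carrier of endothelium and platelets, had -0.22 ± 0.09, with pairs between -0.36 and -0.12. Egfl7, a secreted factor that guides vessel tube formation, had -0.07 ± 0.08.

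Both genes of lymphatic and sinusoidal endothelium varied widely. Lyve1, a hyaluronan receptor of lymphatic, sinusoidal and yolk sac endothelium and of some macrophages, had 8187 in Cy3 and 8030 in Cy5 in pair 1, 3864 and 7922 in pair 2, and 7846 and 13114 in pair 3. The channels were nearly level in pair 1, and Cy5 was brighter in pairs 2 and 3. The log2 ratios were -0.03, 1.04 and 0.74, with a mean of 0.58 ± 0.21 (SE, n = 3; 1.5-fold; limma adjusted p = 0.273). The mean of Lyve1 was 0.89 without pair 1, 0.36 without pair 2 and 0.50 without pair 3. Stab2, a scavenger receptor of sinusoidal endothelium, had 1165 in Cy3 and 772 in Cy5 in pair 1, 1217 and 1281 in pair 2, and 1032 and 2313 in pair 3. Its ratios were -0.59, 0.07 and 1.16, with a mean of 0.21 ± 0.33, and the mean was 0.62 without pair 1, 0.28 without pair 2 and -0.26 without pair 3. Stab2 thus ran from lower to higher in Cy5 depending on the pair.

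Several probes were kept for 8 of the members, and for none of the 8 did their means lie on both sides of 0. The 3 Stab2 probes were alike in order, at -0.59, -0.32 and -0.50 in pair 1, 0.07, 0.36 and 0.46 in pair 2, and 1.16, 0.69 and 0.72 in pair 3. The 2 Plvap probes were above 0 in every pair, and the dimmer had 0.17, 0.50 and 0.21 and a mean of 0.30 ± 0.10 (SE, n = 3). The 2 Etv2 probes were alike as well, with means of -0.11 and -0.19. The probes of Kdr and Cd34 differed. In pair 2 Kdr had -0.10 by its bright probe and 0.84 by its dim probe. The dim Cd34 probe had 0.10, 1.10 and -0.12, opposite in sign to the bright probe in pairs 1 and 3, so it did not share that probe's order of pairs. The dim probes had means of 0.37 ± 0.16 for Kdr and 0.36 ± 0.24 for Cd34. The second Vwf probe had 0.22, -0.43 and -0.34, and the dimmest Flt1 probe had 0.06, 0.08 and -0.12, so for both genes the same sign in all 3 pairs held for the probe used and not for every probe. A second Clec14a probe, left out because both of its channels were dim on all 3 arrays, had -0.11, -0.09 and 0.51. A second Erg probe, left out for the same reason, had 0.33, 0.64 and 0.11 and a mean of 0.36 ± 0.12. Its mean lay on the other side of 0 from that of the Erg probe used (-0.16).

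**Figure D3:**
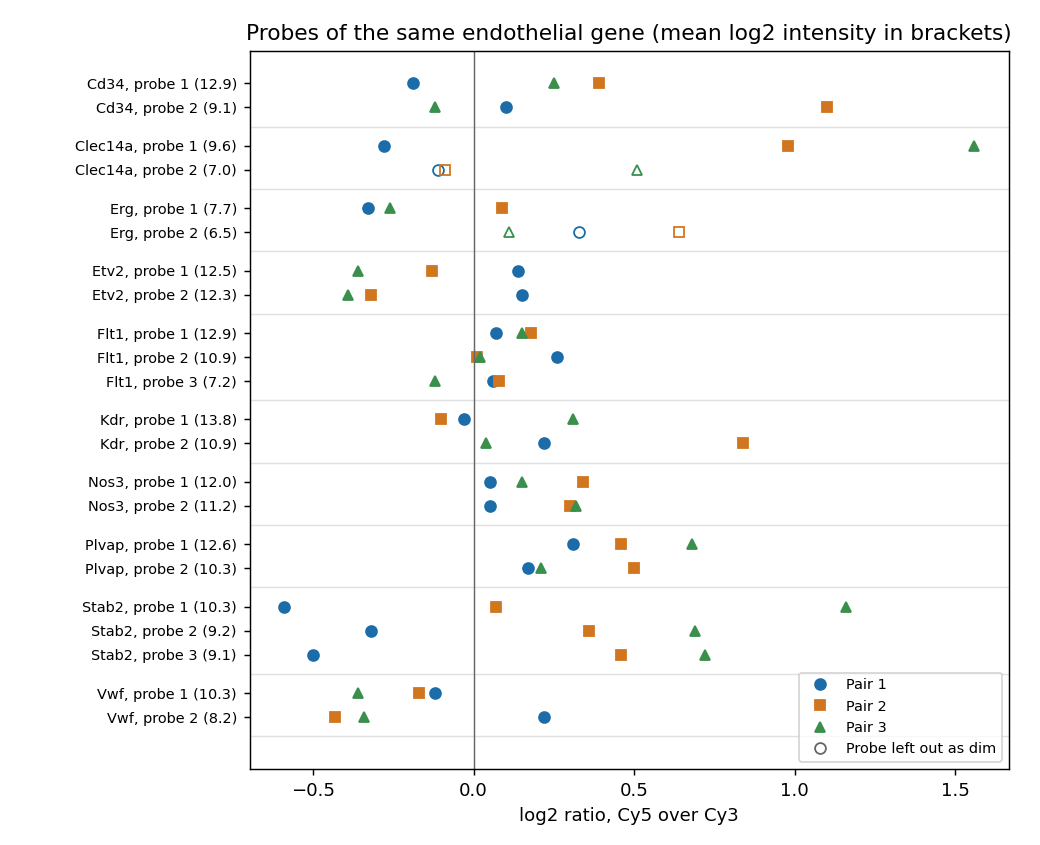
Log2 ratio of Cy5 over Cy3 in pairs 1, 2 and 3 for each probe of the endothelial genes that have several, with the mean log2 intensity of the probe in brackets; open symbols are probes left out as dim. The 3 Stab2 probes keep the same order of pairs, while the 2 Kdr probes part in pair 2 (-0.10 and 0.84).

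The authors' deposited table lists 24 of the members, with no statement of which channel its ratio is over. Its ratios correlated at -0.802 across 39915 shared probes with the mean Cy5 over Cy3 ratio, so they were turned in sign for the comparison. The authors' deposited table gives the probe used here for 22 members, and after the turn all 22 had the same sign as here. That table comes from the same 3 arrays and was turned by the correlation above, so a match in sign was close to fixed in advance. It does not list Tek, Fli1, Esam, Cldn5, Sox7, Nrp1, Angpt2 or Ecscr, whose means lay near 0 here. In the authors' deposited table Plvap is listed at 0.50 after the turn, with the smallest adjusted p of the members, 0.398.

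Other genes of vessel growth, from 8 lists of 104 genes of which 101 were measured, gave no call either (limma, smallest adjusted p = 0.0589). At an unadjusted p below 0.05 there were 7 higher and 8 lower, or 14.9%, against 17.2% of all genes, and the median was -0.05, against -0.02 over all genes. Among ligands (10 of 10 measured), Angpt4, an angiopoietin, had 0.47, 0.67 and 0.63 in pairs 1, 2 and 3 and a mean of 0.59 ± 0.09 (SE, n = 3; adjusted p = 0.0589). Angpt1, the activating ligand of Tek made by mesenchyme and heart muscle, had -0.61, -0.71 and -0.23 and a mean of -0.51 ± 0.12 (adjusted p = 0.167). Angptl2, an angiopoietin-like protein, had -0.23 ± 0.09, and Vegfa, the ligand of Kdr and Flt1, lay at 0.09 ± 0.09. Apln, the ligand of Aplnr, had 0.71, -0.47 and -0.25, with pair 1 opposite to the others.

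In the arterial and venous list (17 of 17 measured, median -0.01), Dll4, the Notch ligand of arterial and tip cells, had 0.32 ± 0.08 (SE, n = 3 pairs; limma adjusted p = 0.182), the gap junction gene Gja4 0.69 ± 0.20 and the Notch ligand Jag1 -0.39 ± 0.12. Gja4 had 0.09 in pair 1 against 0.90 and 1.07 in pairs 2 and 3. The list of other pan-endothelial genes (15 of 16 measured, median 0.10) had 2 members with an unadjusted p below 0.05 above 0 and 1 below. They were Myct1 (0.28 ± 0.09) and Ushbp1 (0.34 ± 0.11), and the adhesion receptor Eltd1 (-0.34 ± 0.12). As in the 32 genes, few of these 15 were above 0 in pair 1 and most in pair 3: 4, 9 and 14 in pairs 1, 2 and 3.

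In the junction partner list (13 of 13 measured, median -0.09), Gja1, a connexin, had -0.31 ± 0.10 (SE, n = 3), Krit1, of the cerebral cavernous malformation complex, -0.28 ± 0.09 and Jam2, a junctional adhesion molecule, 0.24 ± 0.08 (limma adjusted p between 0.237 and 0.267). Among pericyte and smooth muscle genes (9 of 10 measured, median -0.09), Pdgfb, the endothelial signal that recruits pericytes, had 0.30 ± 0.09, Cspg4 -0.31 ± 0.11 and Tbx18 -0.21 ± 0.09. The ALK1 and BMP arm (11 of 12 measured, median -0.14), the guidance and S1P genes (11 of 11, -0.09) and the upstream transcription factors (15 of 15, 0.09) had no member with an unadjusted p below 0.05. The genes with the smallest p in these lists were Acvrl1 (0.20 ± 0.08), Smad7 (-0.23 ± 0.10), Id1 (-0.14 ± 0.08), Nrp2 (0.19 ± 0.09), Sema3a (-0.21 ± 0.12), Robo1 (-0.14 ± 0.09), Nfatc1 (-0.24 ± 0.10), Ets2 (-0.21 ± 0.10) and Tal1 (-0.27 ± 0.13).

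Markers of other cell types also differed between pairs, and their part in the pattern of the endothelial genes was not tested. Of 11 measured primitive erythroid markers 1 was above 0 in pair 1, 11 in pair 2 and 7 in pair 3, with medians of -0.50, 0.68 and 0.18. The call there was the embryonic globin Hbb-bh1 (1.28 ± 0.16, SE, n = 3; limma adjusted p = 0.0415). With the loess span of 0.02 no mean in the erythroid list was above 0.23, so the size of the Hbb-bh1 ratio depended on the span. Of 7 megakaryocyte and platelet markers, which share Vwf with endothelium, 1, 3 and 5 were above 0. Their call was Clec1b (0.65 ± 0.09, adjusted p = 0.0459), and the highest mean of this list was 0.68 with the smaller span. Of 12 visceral endoderm and yolk sac markers 9, 12 and 12 were above 0, and Apoc2 was called (1.16 ± 0.12, adjusted p = 0.0291). No mean in this list was above 0.82 with the smaller span, so the size of the Apoc2 ratio depended on it too. Of 8 decidua and uterus markers 2, 2 and 8 were above 0, with medians of -0.34, -0.77 and 0.72.

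Macrophage and leukocyte markers, of which Lyve1 can also be one, had 2, 3 and 2 of 7 above 0 in pairs 1, 2 and 3. The hemogenic and stem cell markers had 2, 3 and 3 of 6 above 0, the trophoblast markers 2, 1 and 3 of 5, and the endocardium markers 2, 1 and 2 of 4. Cardiomyocyte markers had 1, 2 and 4 of 10 above 0, and 3 of them were lower in Cy5: Myh6 (-0.70 ± 0.08, SE, n = 3), Ttn (-0.62 ± 0.08) and Ryr2 (-0.64 ± 0.09), each by limma's adjusted p. The count above 0 was lowest in pair 1 and highest in pair 3 in the endothelial genes, and also in the platelet, cardiomyocyte, pericyte, junction partner, arterial and venous, and other pan-endothelial lists. Erythroid markers had their highest count in pair 2 instead. Medians did not follow the counts in every list. They were lowest in pair 2 in the pericyte (-0.10, -0.17 and 0.23), junction partner (-0.05, -0.07 and 0.01) and arterial and venous lists (-0.04, -0.09 and 0.08). In the platelet, cardiomyocyte and other pan-endothelial lists pair 1 had the lowest median.

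**Figure D4:**
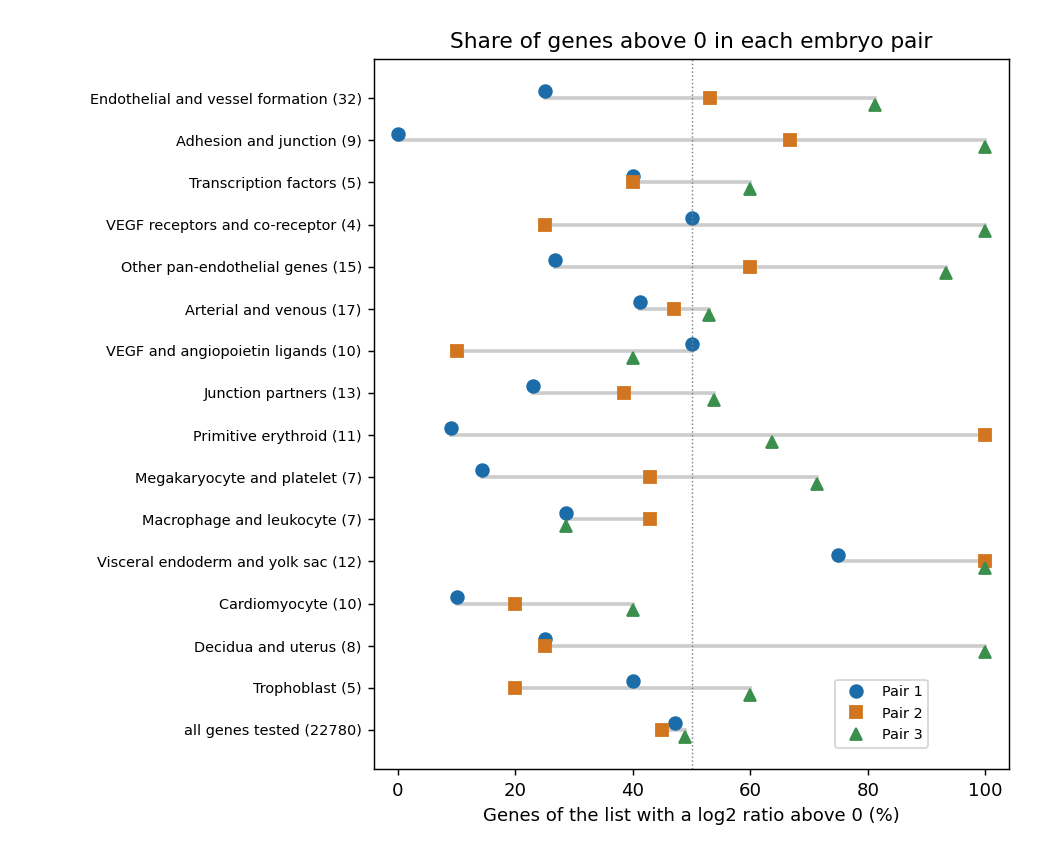
Percentage of the measured genes of each list (number in brackets) with a log2 ratio of Cy5 over Cy3 above 0 in pair 1 (circles), pair 2 (squares) and pair 3 (triangles). For the 32 endothelial genes the share goes from 25% in pair 1 through 53.1% in pair 2 to 81.2% in pair 3, while over all genes tested it lies between 45% and 48.9%.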

How the data were processed

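Each of 3 arrays gave a Cy3 and a Cy5 signal per spot. The deposited intensity values are median spot and local background brightness from Feature Extraction 10.7.3.1, and processed signals background-subtracted and dye-normalized by that software, per the file headers. The arrays share 1 slide and 1 scan time, so no batch could be tested. The authors' deposited table gives a log2 ratio, a p-value and an adjusted p-value for 40000 probes; limma is the tool listed in the submitters' processing notes, with no settings.

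Median signals were background-corrected (normexp, offset 50), and log2 ratios were normalized within arrays by loess (span 0.3). In that step controls and spots marked as outliers had weight 0, and they were left out before the spots of a probe were averaged. Of 55681 probes, 31603 were kept, for which at least 2 arrays were well above background in a given channel, by at least 0.5 of the spots. Names came from RefSeq accessions (27656 probes matched to a gene of GRCm38.p6), then from the gene names in the authors' table. The brightest probe stood for a gene. Mean ratios were tested against 0 with limma 3.58.1 in R 4.3.3 (intercept only, two-sided), an approach tested on simulated data. Array number limits the precision. Median spot brightness was between 142.5 and 155.5 in Cy3 and between 234 and 257 in Cy5, and no spot was saturated.

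Members and lists were chosen with earlier results of these data known. Full values go to members with an unadjusted p below 0.05, to those with the same sign in all pairs and a mean of at least 0.25 in size, and to the member with the widest range in each role group; Flt1, Emcn, Angpt2 and Cdh5 beyond these were chosen after their values were seen. Other lists are represented by their calls and up to 3 members by smallest p, with Vegfa and Apln chosen after their values were seen.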

Additional observations from a re-analysis of the deposited data

How the results depend on the processing

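No endothelial gene was called under any of 14 other settings, (scanner-processed signals, which replace both the background correction and the loess, normexp offset 16, no background correction, loess span 0.02, median centring, no or stricter dim-probe filter, mean of probes, every probe alone, a trended prior, bright genes left out, and each pair left out). For the other vessel lists the alternatives run were span 0.02 and each pair left out, in which no gene of any kind was called, so they say nothing about these lists. Over all genes the count of calls was 314 as reported, 633 with median centring and 194 with the mean of probes. It was 0 with processed signals (3302 at an unadjusted p below 0.05), span 0.02 (3357), bright genes left out (3429) and without pair 1, 2 or 3 (2064, 3637 and 3292). In those settings a count of 0 for the endothelial genes was certain, so they say nothing about the members' calls. The members' smallest adjusted p ranged from 0.102 to 0.301. The members' median ranged from -0.04 to 0.12 when a pair was left out. Between 12 and 19 members had the same sign in both remaining pairs, where fewer pairs have to match. Plvap, Tie1, Lyve1, Clec14a, Robo4 and Vwf kept their sign in each setting that gave a value per gene. In that order their values were 0.39 to 0.57, 0.13 to 0.34, 0.36 to 0.89, 0.35 to 1.27, -0.33 to -0.20 and -0.36 to -0.14. These ranges include the authors' deposited table, which comes from the same arrays and was turned in sign to match. A kept sign was not particular to these genes. Pecam1, Cdh5, Flt1, Erg, Sox18, Nos3, Ramp2, Cd34, Gpr116, Aplnr and Ecscr did not change sign either, though Ecscr reached 0.00 without pair 1. The test was paired in every setting, because each array holds both RNAs of its pair and the ratio itself is the pairing.

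Some genes changed sign, none of them called, and the cause was not tested. With processed signals Tek had 0.03, Esam -0.03, Egfl7 0.04 and Nrp1 -0.02. Without background correction Esam had 0.00. With span 0.02 Tek had 0.01, Fli1 0.03 and Egfl7 0.01. With median centring Eng had -0.02, Esam -0.12, Sox7 -0.08, Egfl7 0.10, Nrp1 -0.11 and Angpt2 -0.04. With a pair left out, these genes had either sign or reached 0: Tek (-0.26 to 0.15), Flt4 (-0.02 to 0.21), Fli1 (-0.11 to 0.07), Emcn (0.00 to 0.57), Cldn5 (-0.03 to 0.24), Icam2 (-0.01 to 0.27), Kdr (-0.06 to 0.14), Eng (-0.08 to 0.23), Etv2 (-0.24 to 0.01), Esam (-0.04 to 0.06), Sox7 (-0.10 to 0.19), Stab2 (-0.26 to 0.62), Nrp1 (-0.09 to 0.10), Angpt2 (-0.16 to 0.21) and Ecscr (-0.11 to 0.00).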
